A study of Mus musculus with 6 samples.

Results

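The proteasome genes were followed in mouse embryos at the early 2-cell stage, in control embryos and in embryos exposed to ethylparaben (EtP). They were taken as every row of the deposited gene tables whose symbol begins with Psma to Psmg and a number, apart from Psmc3ip, which is not a proteasome subunit, and rows marked as pseudogenes. This gave 49 genes of the 55549 rows in each table, and 5 rows were left out. EtP, a 4-hydroxybenzoic acid ester used as a preservative, was added to the medium at 40 uM from 4 h after fertilization, and most exposed embryos stopped at this stage, according to the series. Each group had 3 libraries, named here control and EtP replicates 1 to 3. The labels give no mouse strain, no number of embryos per library, no hour of collection and no description of the control medium. They do not say whether replicates came from separate cultures, so the p-values below rest on differences among these libraries alone, and those may be technical.

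The proteasome degrades proteins that carry chains of ubiquitin. Its core particle is a stack of rings, with outer alpha rings (Psma genes) that gate the channel and inner beta rings (Psmb genes) that hold the catalytic sites. The regulatory particle caps the core: a base of ATPases (Psmc genes) and non-ATPase subunits unfolds substrates, and a lid (the other Psmd subunits) removes the ubiquitin chain. Activators (Psme genes) can cap the core in place of the regulatory particle, and chaperones (Psmg genes, Psmd5, Psmd9 and Psmd10) help assembly. In early embryos proteasomes take part in the removal of proteins stored in the egg as the embryonic genome becomes active. All 49 genes are annotated as protein-coding on mm10 in GENCODE M21.

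Library totals ranged from 11173295 to 14737152 estimated counts, and between 25971 and 26103 genes had at least 1 count in control libraries against 19321 to 19713 in EtP libraries. Summed levels of 8 oocyte and early embryo markers were 6526 to 9336 CPM in control and 22277 to 24723 CPM in EtP libraries, where CPM (count share of the library) is scaled by TMM, a factor that sets most genes level between libraries. The 5 markers of the 2-cell programme summed to 189 to 238 CPM in control and 8.18 to 10.2 CPM in EtP. Markers of cumulus cells summed to 17 to 38.2 and 17.4 to 19.5 CPM, with Amh and Ptx3 at 0. Sperm markers summed to 5.84 to 12.9 and 2.90 to 3.43 CPM, with Tnp1 at 0, immune cell markers reached at most 1.14 CPM, with Tyrobp at 0, and blastocyst-stage markers summed to 21.7 to 26.0 and 26.4 to 36.7 CPM. Values are shares of the RNA in a library, so fewer cells and less RNA per cell cannot be told apart, and the part of these shifts in the results below was not tested.

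Of the 49 genes, 43 had enough counts to be tested. In EtP 10 were higher and 5 lower by edgeR's quasi-likelihood test (p adjusted after Benjamini and Hochberg over 14373 genes, threshold 0.05). Over all tested genes 30.6% were called, 12.5% higher and 18.1% lower. The median log2 fold change was 0.22 over the tested proteasome genes and -0.19 over all tested genes. The calls lay in different parts of the complex. The 17 genes of the regulatory particle that carry a Psm name gave 8 higher and 0 lower by edgeR. Counts and sums of the particle here leave out its subunits Adrm1, called higher, and Sem1, called lower. Of the 7 constitutive beta ring genes 0 were higher and 2 lower, and the 7 alpha ring genes gave 2 higher and 1 lower. These counts depended on the scaling: the regulatory particle gave 4 higher and 2 lower in TPM (limma) and 3 and 3 with library size alone, and the beta ring 0 and 6 on both. On both scales Psmc2 and Psmd3 were called lower. Over all genes 5.11% were called higher and 42.5% lower in TPM, and 3.79% and 53% with library size alone. Whether these parts differ from each other was not tested.

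**Figure D1:**
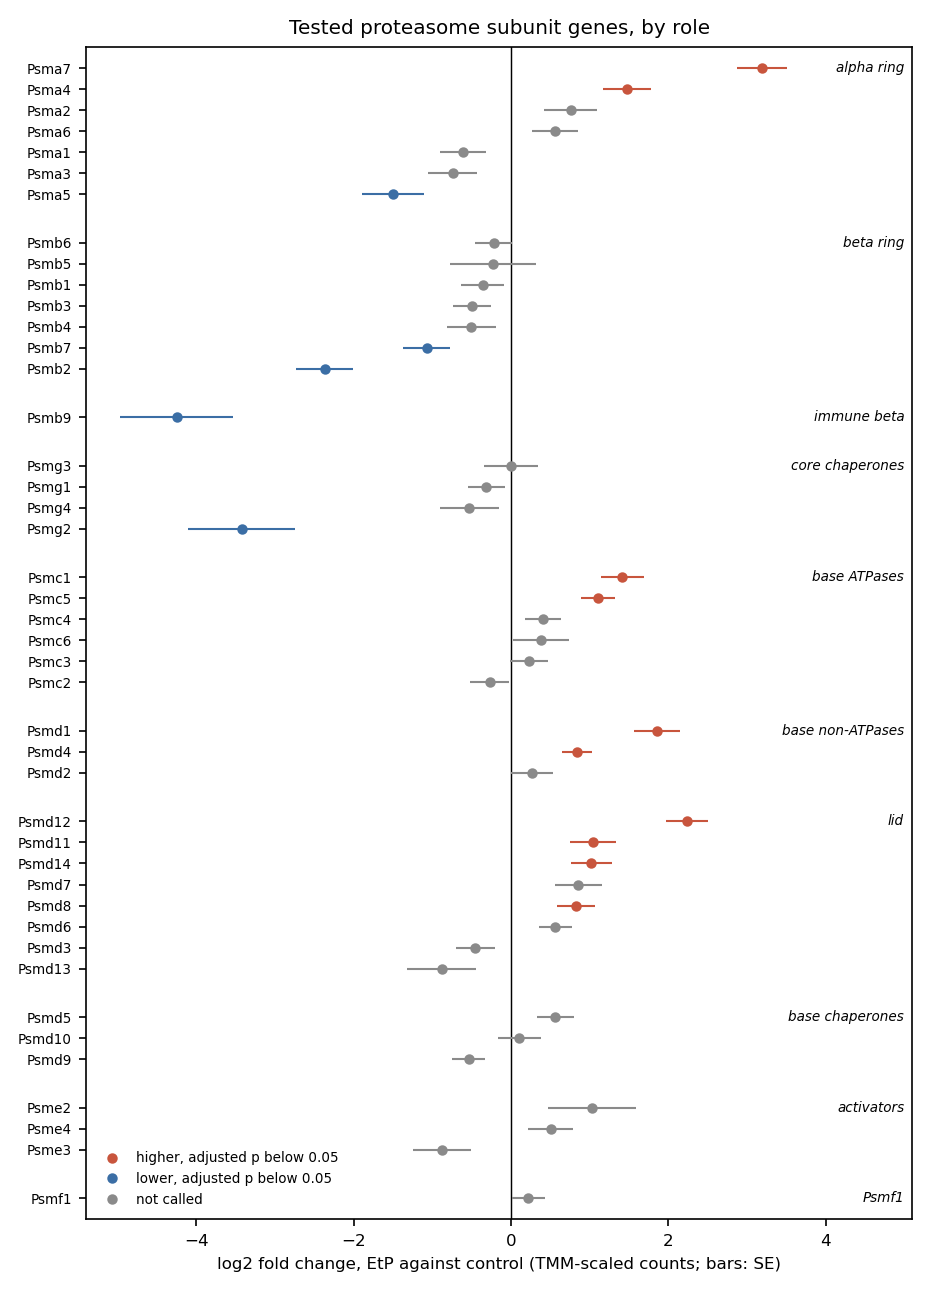
Log2 fold change of EtP against control for the 43 tested proteasome genes, grouped by role, with bars for the standard error (3 libraries per group). Called genes of the base and lid lie to the right of 0, and all 7 beta ring genes lie to the left, 2 of them called.

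The promoters of the strongest changes are shown to set the genes that moved together beside one that moved the other way. RefSeq promoters (GRCm38.p6, 250 bases before to 50 after the start) were found for 41 of the 49 genes; the first entry was used where a gene had more than 1. Psma7 (chr2:180042415-180042714, minus strand), Psmd12 (chr11:107479278-107479577, plus strand) and Psmd1 (chr1:86064369-86064668, plus strand) had the smallest p among the higher genes. Psmb9 (chr17:34187281-34187580, minus strand) was lower; for Psmb2, the lower gene with the smallest p, none is shown. Capitals mark, on either strand, GGGCGG (the GC box), CCAAT and TGACNNNGC, the core of the antioxidant response element to which Nfe2l1, an activator of proteasome genes, binds. Overlapping matches run together.
Psma7: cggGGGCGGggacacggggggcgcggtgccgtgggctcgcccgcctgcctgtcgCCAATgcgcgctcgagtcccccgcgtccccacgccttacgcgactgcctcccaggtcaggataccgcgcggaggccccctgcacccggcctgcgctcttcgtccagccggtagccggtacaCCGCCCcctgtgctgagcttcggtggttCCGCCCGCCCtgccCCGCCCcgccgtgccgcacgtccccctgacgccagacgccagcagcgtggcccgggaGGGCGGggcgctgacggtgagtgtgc
Psmd12: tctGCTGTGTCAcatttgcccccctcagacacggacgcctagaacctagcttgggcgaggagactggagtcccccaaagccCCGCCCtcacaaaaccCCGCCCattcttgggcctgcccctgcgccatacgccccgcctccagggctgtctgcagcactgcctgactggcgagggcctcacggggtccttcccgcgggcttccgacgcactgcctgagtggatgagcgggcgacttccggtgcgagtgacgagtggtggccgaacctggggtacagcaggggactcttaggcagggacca
Psmd1: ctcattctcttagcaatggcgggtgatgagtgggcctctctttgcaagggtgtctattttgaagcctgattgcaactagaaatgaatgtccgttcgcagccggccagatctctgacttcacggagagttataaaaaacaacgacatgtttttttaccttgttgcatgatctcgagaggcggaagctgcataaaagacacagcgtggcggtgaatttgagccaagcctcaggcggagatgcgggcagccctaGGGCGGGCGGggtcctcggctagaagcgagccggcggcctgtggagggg
Psmb9: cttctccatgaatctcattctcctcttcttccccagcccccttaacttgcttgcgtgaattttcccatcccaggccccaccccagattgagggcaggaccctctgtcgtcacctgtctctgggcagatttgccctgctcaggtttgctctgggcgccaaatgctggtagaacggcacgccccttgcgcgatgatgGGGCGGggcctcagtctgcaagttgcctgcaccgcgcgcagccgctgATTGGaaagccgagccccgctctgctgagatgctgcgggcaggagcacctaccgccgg
The Psma7 window held 6 GGGCGG matches and 1 CCAAT, the latter starting 196 bases before the start. In Psmd12 there were 2 GGGCGG matches and 1 TGACNNNGC on the reverse strand, 247 to 239 bases before the start. Psmd1 held 2 overlapping GGGCGG matches just after its start, and Psmb9 had 1 GGGCGG and 1 CCAAT on the reverse strand.

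The motif GGGCGG was present in 23 of the 41 promoters (56.1%), where 35.7% of all 32851 promoters of this length held it. It was in 8 of the 10 promoters of genes higher in EtP and in 1 of the 2 found for the 5 lower genes. CCAAT was in 14 of 41 (34.1%, against 37.4% of all), 4 of them of higher genes. TGACNNNGC was in 6 of 41 (14.6%, against 12.4%), namely Psmb5, Psmb6, Psmc6, Psmd9, Psmd12 and Psme4, of which Psmd12 alone was called. These are matches of letters only, in 1 window per gene. The 32851 promoters were not limited to tested genes, and the shares among all genes higher or lower in EtP were not taken. Whether any motif goes with the direction of change was not tested.

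Psma7, an alpha ring subunit, had the largest increase of the family. Its level was 255, 140 and 118 CPM in control replicates 1 to 3 and 1625, 1741 and 1324 CPM in EtP replicates 1 to 3. Every EtP library was above every control library, and control replicate 1 was the highest control. The means were 171 ± 73.3 and 1564 ± 215 CPM (SD, n = 3), so that it rose by 3.19 ± 0.31 on the log2 scale (± gives the SE; edgeR adjusted p = 5.74e-05). The gene lies on chromosome 2 from 180036374 to 180042433, and no other annotated gene overlaps it. It was called in the same direction under all 16 alternative analyses, with log2 fold changes from 2.48 to 3.69.

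The other alpha ring genes went both ways. Psma4 was at 127, 70.1 and 53.5 CPM in control and 255, 231 and 213 CPM in EtP, with no overlap, and rose by 1.48 ± 0.31 on the log2 scale (edgeR adjusted p = 0.00484). Psma5 was at 53.3, 27.7 and 15.5 CPM in control and 10.1, 13.6 and 10.4 CPM in EtP. It was 2.84-fold lower (SE 0.40 on the log2 scale; edgeR adjusted p = 0.0159), although the lowest control library was close to the EtP range; without EtP replicate 1 or EtP replicate 3 the call was lost (adjusted p = 0.0756 and 0.0697). Gm8394, a pseudogene 98.6% identical to it over 952 bases, may share its reads and had 1.41 to 24.1 counts per library, and 1700010K24Rik overlaps it. Psma2, Psma6, Psma1 and Psma3 were not called, with log2 fold changes of 0.76, 0.56, -0.61 and -0.74. Of 16 alternatives, 5 called Psma3 lower and 4 Psma1, while 3 called Psma2 higher and 2 Psma6. In TPM Psma3 was at -2.35 (limma adjusted p = 0.00023), where 42.5% of all genes were called lower. Its TPM was 39.47 to 76.95 in control and 8.81 to 10.73 in EtP. Gm13835, a processed pseudogene 100% identical to Psma3 over 665 bases, may share its reads and had 6.07 to 38.54 counts per library. In Psma2 the control libraries spread from 188 to 508 CPM, which reached into the EtP values of 448 to 564 CPM. Psma8, the alpha subunit of germ cells that takes the place of Psma7, had 10 counts over the control libraries and 3 over the EtP libraries, too few to test.

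In the constitutive beta ring all 7 log2 fold changes were below 0, from -2.37 to -0.22, with a median of -0.49. Without control replicate 1 the values of Psmb1, Psmb5 and Psmb6 turned to 0.0085, 0.70 and 0.093, none of them called. Psmb2, a subunit without a catalytic site, was at 264, 132 and 88.9 CPM in control and 33.0, 31.2 and 29.6 CPM in EtP. The lowest control was thus far above the highest EtP library, while the controls differed among themselves more than the EtP libraries did. It fell by 2.37 ± 0.36 (edgeR adjusted p = 0.000937) and was called under all 16 alternatives, from -3.07 to -1.73. The gene lies on chromosome 4 from 126677630 to 126709714 with no overlapping gene.

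Psmb7 carries the trypsin-like catalytic site. Its level was 36.6, 22.6 and 18.2 CPM in control and 12.5, 10.4 and 13.7 CPM in EtP, without overlap, a log2 fold change of -1.07 ± 0.29 (edgeR adjusted p = 0.0189). Leaving out control replicate 2, or any of the EtP libraries, ended the call (edgeR adjusted p = 0.0516 to 0.0983). Nek6 overlaps the gene. Psmb6, which carries the caspase-like site, was at 139, 103 and 82.9 CPM in control and 97.4, 91.8 and 89.9 CPM in EtP, so that the groups overlapped and it was not called (log2 fold change -0.22 ± 0.23). Psmb5, with the chymotrypsin-like site, had only 1.04 to 3.72 CPM in control and 1.08 to 2.12 CPM in EtP. Its reads may also be shared with Gm3375, a processed pseudogene that is 98.9% identical over 796 bases. Psmb1, Psmb3 and Psmb4 were not called, with log2 fold changes of -0.36, -0.49 and -0.50.

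The immune and thymic forms of the beta subunits were nearly absent from both groups. Psmb9, the interferon-induced replacement of Psmb6, had 70 counts over the control libraries and 2 over the EtP libraries, with 1.80, 1.00 and 1.36 CPM in control. By these summed counts, scaled by TMM, it was 21.6-fold lower in EtP, with a 95% exact binomial interval of 5.77 to 182 that covers counting error only. The edgeR log2 fold change was -4.25 ± 0.71 (edgeR adjusted p = 0.00157). In TPM, the deposited value scaled for transcript length and depth, control libraries held 1.87 to 4.55 of Psmb9 and 262 to 301 of Psmb6. Psmb8, Psmb10 and the thymic Psmb11 were too low to test, with 24, 14 and 30 counts over the control libraries and 3, 1 and 8 over the EtP libraries. Psmb9 overlaps Tap1, and reads from bases that both genes share may not be separable, since the protocol describes no step that marks strand. How far their exons overlap was not examined.

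Of the 10 increases 8 were in the regulatory particle. Psmd12, a scaffold subunit of the lid, was at 61.4, 36.9 and 33.8 CPM in control and 215, 227 and 182 CPM in EtP. No EtP library overlapped the controls, and it rose by 2.24 ± 0.27 (edgeR adjusted p = 0.000214). Psmd1, the large scaffold of the base, was at 48.5, 80.2 and 101 CPM in control and 286, 217 and 328 CPM in EtP. For this gene control replicate 1 was the lowest control, and all EtP libraries were at least at 217 CPM; it rose by 1.85 ± 0.29 (edgeR adjusted p = 0.00111). Both were called under all 16 alternatives. Psmd12 spans chromosome 11 from 107479484 to 107504362 and Psmd1 chromosome 1 from 86064387 to 86139151; both overlap other annotated genes, Gm11722 for Psmd12 and Htr2b among others for Psmd1.

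Of the 6 ATPases of the base, 2 were higher and 0 lower by edgeR. Psmc1 was at 46.6, 30.3 and 26.5 CPM in control and 98.1, 109 and 69.4 CPM in EtP, a rise of 1.42 ± 0.28 (edgeR adjusted p = 0.00374). Psmc5 was at 114, 92.7 and 77.3 CPM in control and 216, 201 and 194 CPM in EtP, a rise of 1.10 ± 0.22 (edgeR adjusted p = 0.0036). Neither gene had overlapping groups. Psmc4, Psmc6, Psmc3 and Psmc2 were not called, at 0.40, 0.38, 0.23 and -0.27 on the log2 scale; in the particle the ATPases sit in 1 ring in equal numbers.

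The ubiquitin receptor Psmd4 was the most abundant transcript of the regulatory particle per length. It was at 161, 153 and 140 CPM in control and 290, 263 and 257 CPM in EtP and rose by 0.84 ± 0.19 on the log2 scale of TMM-scaled counts (edgeR adjusted p = 0.00843). In TPM, however, its groups overlapped, at 187 to 230 in control and 218 to 252 in EtP. Psmd2, the docking subunit for ubiquitin shuttle factors, was at 81.6 ± 26.1 and 98.0 ± 14.6 CPM (SD, n = 3) and was not called.

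The 8 lid subunits with a Psm name gave 4 higher and 0 lower by edgeR. After Psmd12 came Psmd11, which clamps lid, base and core together, at 51.7, 93.3 and 125 CPM in control and 201, 167 and 189 CPM in EtP (1.04 ± 0.30; edgeR adjusted p = 0.0223). Psmd14, the subunit that cuts off the ubiquitin chain, was at 21.1, 16.2 and 12.3 CPM in control and 30.1, 31.6 and 39.2 CPM in EtP (1.02 ± 0.26; edgeR adjusted p = 0.0132). Psmd8 was at 37.6, 56.9 and 58.5 CPM in control and 94.7, 100.2 and 75.9 CPM in EtP (0.82 ± 0.24; edgeR adjusted p = 0.0253). The groups did not overlap in any of these genes, but each call depended on single libraries: with 1 left out, the highest edgeR adjusted p reached 0.0731 for Psmd11, 0.0547 for Psmd14 and 0.0856 for Psmd8. The filter at 10 CPM also ended the calls of Psmd11 (edgeR adjusted p = 0.0751) and Psmd8 (edgeR adjusted p = 0.0914). In TPM the groups of all 3 genes overlapped, and the log2 differences were 0.51 for Psmd11, 0.29 for Psmd14 and 0.19 for Psmd8. Psmd11 may also share reads with A730017L22Rik, which is 97.9% identical over 1501 bases and had 12.1 to 41.8 counts per library. Psmd7, the partner of Psmd14, missed the threshold at 0.86 ± 0.30 (edgeR adjusted p = 0.0509), as did Psmd6 at 0.57 ± 0.21 (edgeR adjusted p = 0.0635). Psmd3 and Psmd13 were at -0.45 and -0.88 and were not called; Psmd13 had 1.54 ± 0.54 CPM in control (SD, n = 3) and overlaps Sirt3.

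**Figure D2:**
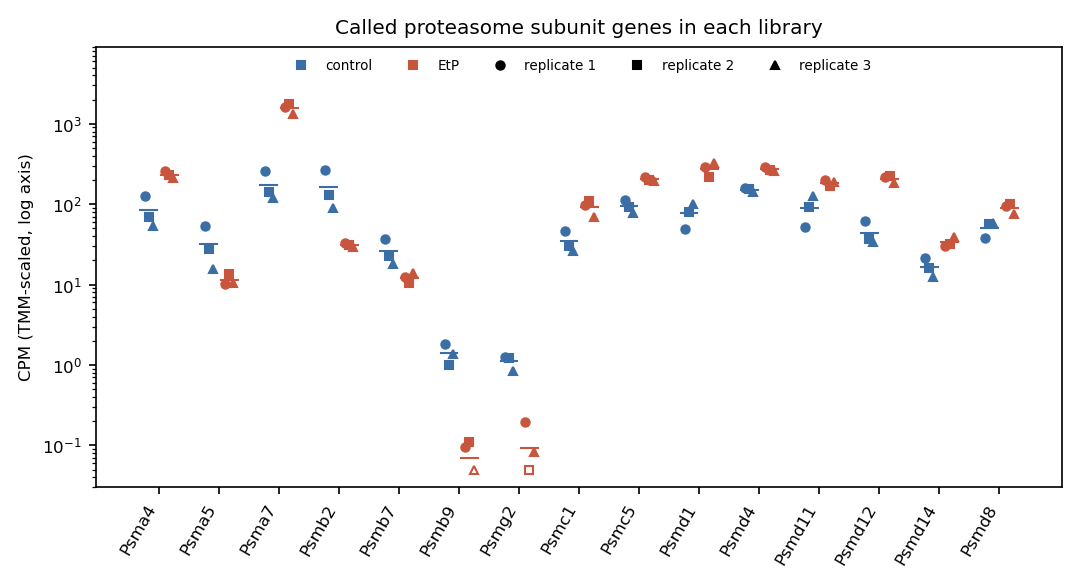
CPM of the 15 called proteasome genes in each of the 6 libraries on a log axis; lines are group means, symbols mark the replicate, and open symbols at the lower edge are libraries with no count. Groups do not overlap for any of the 15 genes, and the control points spread more widely than the EtP points in most of the core genes, with Psmb2 at 88.9 to 264 CPM in control and 29.6 to 33.0 CPM in EtP.

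Among the tested genes of the family, 14 were higher and 8 lower without overlap between the groups in CPM. Over all tested genes 19% were higher and 27.9% lower without overlap. In TPM the same counts were 6 and 23, against 6.74% and 50.4% of all tested genes. The numbers of members in each direction thus depended on the scale. The median of all genes was -0.65 on the TPM scale and -0.92 with library size alone. On log2(TPM + 1), limma called 6 members higher (5.11% of all genes) and 17 lower (42.5%). The 6 were Psma4, Psma7, Psmc1, Psmc5, Psmd1 and Psmd12. With library size alone edgeR called 5 higher and 18 lower, where 3.79% and 53% of all tested genes were called, and Psmc5 was no longer among the higher ones (adjusted p = 0.126). On both scales the calls of Psmd4, Psmd8, Psmd11 and Psmd14 were lost. The cause of this dependence was not tested. None of the 15 called genes changed sign under any of the alternatives run.

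Levels per length can be compared between subunits in TPM. In control the order was led by Psma7 at 350 ± 86.4, Psmb2 at 342 ± 130, Psmb6 at 279 ± 19.7, Psma2 at 242 ± 95.4 and Psmd4 at 211 ± 22.3 TPM (SD, n = 3). In EtP it was led by Psma7 at 2103 ± 117, Psma2 at 257 ± 9.42, Psmd4 at 237 ± 17.2, Psma4 at 236 ± 11.9 and Psmc5 at 178 ± 11.6 TPM. Psmb2 moved from the second place to place 18. Of the 42 pairs of neighbours in the order of the 43 tested genes, 3 in control and 8 in EtP had library values that did not overlap, so most neighbours cannot be ranked.

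Although core subunits are present in equal numbers in the particle, their transcripts were unequal. Within a control library the highest of the 14 constitutive core transcripts was 67.1 to 116 times the lowest, which was Psmb5 in every library. In EtP libraries the ratio was 778 to 1217, with Psma7 highest in each. The size of these ratios is uncertain, since Psmb5 had 16 to 62 counts in control and 13 to 22 in EtP libraries. Its reads may also be shared with Gm3375. Psma7 made up 18.5%, 17.6% and 19.6% of the summed core TPM in control replicates 1 to 3 and 68.0%, 70.2% and 66.9% in EtP replicates 1 to 3. The summed TPM of the alpha ring was 1035 ± 306 in control and 2772 ± 110 in EtP (SD, n = 3), but without Psma7 it was 685 ± 220 and 669 ± 6.89, a difference smaller than the spread of the controls. The beta ring summed to 853 ± 177 in control and 303 ± 20.3 TPM in EtP, and the 17 genes of the regulatory particle to 974 ± 131 and 1255 ± 48.1 TPM. The beta ring sums did not overlap between groups, at 706 to 1050 in control and 289.5 to 326 in EtP. Nor did those of the regulatory particle, at 844 to 1105 and 1211 to 1306. Neither sum stands for all its genes. Psmb2 gave the largest part of the beta ring difference, with means of 342 and 44.4 TPM. Of the 17 genes of the regulatory particle 4 were higher without overlap in TPM (Psmc1, Psmc5, Psmd1 and Psmd12) and 5 lower, against 6.74% and 50.4% of all tested genes.

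**Figure D3:**
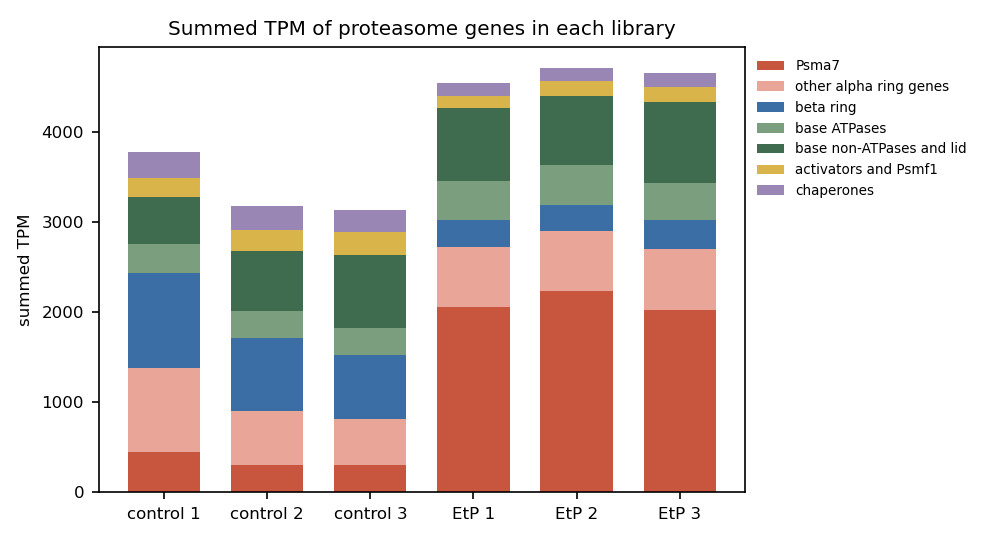
Summed TPM of the proteasome genes in each library, stacked by role and with Psma7 apart; the germline, immune and thymic variants are not drawn. Psma7 is at 2020 to 2236 TPM in EtP against 299 to 450 TPM in control libraries, and the beta ring is at 289.5 to 326 against 706 to 1050 TPM.

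Genes of assembly gave a single call. Among 7 chaperone genes 0 were higher and 1 lower by edgeR. Psmg2, which pairs with Psmg1 to start the alpha ring, had 57 counts over the control libraries and 3 over the EtP libraries, at 1.26, 1.22 and 0.844 CPM in control. By these summed counts, scaled by TMM, it was 11.7-fold lower, with a 95% exact binomial interval of 3.82 to 58.6. The edgeR log2 fold change was -3.43 ± 0.68 (edgeR adjusted p = 0.00385). Its partner Psmg1 was at 36.5 ± 7.88 and 29.4 ± 2.23 CPM (SD, n = 3) and was not called. Psmg4 and Psmg3, the other chaperone pair, were at -0.53 and 0.00 on the log2 scale. Base chaperones were not called either, with Psmd5 at 0.56, Psmd10, also known as gankyrin, at 0.10 and Psmd9 at -0.54. In TPM, where the summed chaperone level was 263 ± 18.5 in control and 149 ± 6.30 in EtP (SD, n = 3), limma called 4 of the 7 lower, where it called 42.5% of all genes lower.

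Of the 3 activators tested, none was called by edgeR with all libraries and the usual filter. Psme4, the nuclear activator linked to histone turnover, was at 77.8, 88.7 and 91.4 CPM in control and 89.7, 184 and 91.9 CPM in EtP, where EtP replicate 2 stood above the other libraries. Psme3, also a nuclear activator, ranged from 38.0 to 105 CPM in control and from 26.6 to 50.7 CPM in EtP, with overlap, a difference of -0.88 ± 0.37 on the log2 scale (edgeR adjusted p = 0.0936). Its TPM did not overlap, at 21.8 to 81.3 in control and 10.3 to 19.8 in EtP. It was called lower in 6 of 16 alternatives, among them no filter (edgeR adjusted p = 0.0201), TPM (-1.45; limma adjusted p = 0.0241) and library size alone (-1.64; edgeR adjusted p = 0.00572). Psme1 and Psme2 form the interferon-induced cap. Psme1, which Emc9 overlaps, had 22, 7 and 4 counts in control replicates 1 to 3 and none over the EtP libraries after rounding. By its 33 control counts together it was lower by at least 6.80-fold when 3 counts are taken as the floor of the EtP group. It was too low for the test as run; with no filter edgeR called it (adjusted p = 0.000934), as did DESeq2 (adjusted p = 0.0159). Psme2 had 24, 9 and 5 counts in control and 12, 17 and 19 in EtP and may share reads with Psme2b, which is 99.4% identical to it and had at most 2 counts in a library. Psmf1, a regulator that binds the core, was at 177, 137 and 121 CPM in control and 161, 166 and 180 CPM in EtP.

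The control libraries differed from each other across the family. For all 14 constitutive core genes control replicate 1 was the highest control and control replicate 3 the lowest. Over the 43 tested members control replicate 1 was highest in 33 (76.7%), where it was highest in 41.6% of all tested genes. The members in which it was highest had a median effective transcript length of 1036 bases, and the 8 in which it was lowest one of 2323 bases. Over all tested genes these medians were 1250 and 2306 bases. Across the 43 genes the ratio of control replicate 1 to control replicate 3 had a Spearman correlation of -0.45 with effective length, and across all 14373 tested genes of -0.42; genes of a library are not independent, and no test is given. The log2 fold change of EtP against control had a correlation of 0.18 with length over the members and of 0.15 over all tested genes. The median coefficient of variation of the members was 32.0% in control and 13.0% in EtP, against 28.0% and 19% over all tested genes.

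**Figure D4:**
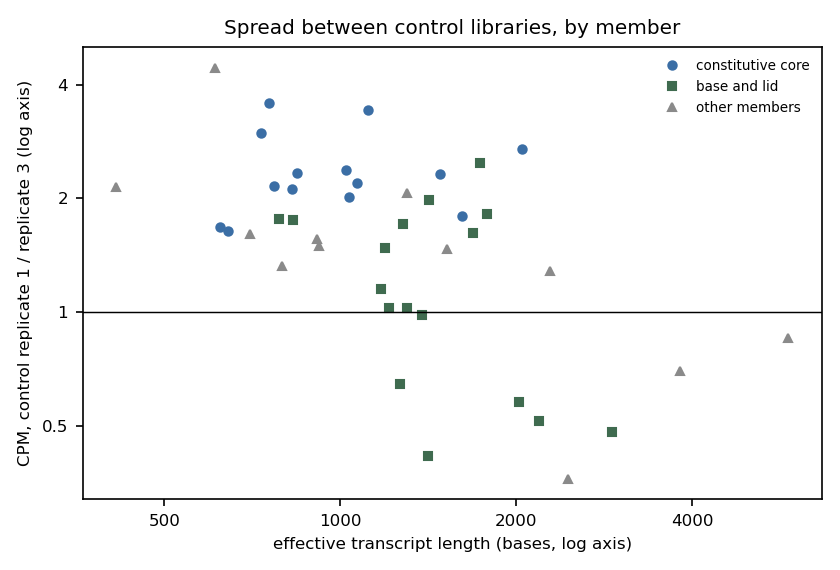
Ratio of CPM in control replicate 1 to control replicate 3 against effective transcript length for the 43 tested proteasome genes, both axes logarithmic. All 14 core genes lie above the line at 1, and the 8 members lowest in control replicate 1 have a median length of 2323 bases.

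Because control replicate 1 held the highest core values, the counts were taken again without it. All 15 calls were kept. The numbers became 18 higher and 7 lower, where 17.6% and 19.3% of all genes tested were called. Psma2, Psma6, Psmc6, Psmd6, Psmd7, Psmd10, Psme2 and Psmf1 were added as higher and Psmd3 and Psme3 as lower. Control replicate 1 was the highest control in each gene added as higher and the lowest in each added as lower. Since the library was chosen by values of these members, the added calls follow in part from that choice and are no independent support.

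Other genes of the ubiquitin-proteasome system were taken from a list of 35 symbols, of which 34 were in the tables and all were tested. In EtP 8 were higher and 5 lower by edgeR, where 12.5% and 18.1% of all tested genes were. Zfand2a, an arsenite-inducible protein that binds proteasomes, rose from 27.6 ± 2.99 to 114 ± 15.4 CPM (SD, n = 3; log2 fold change 2.04 ± 0.22; edgeR adjusted p = 0.000104). The unfolding ATPase Vcp, which feeds substrates to the proteasome, rose from 25.5 ± 0.937 to 71.2 ± 8.56 CPM (edgeR adjusted p = 0.000612). Ecpas, which holds core and cap together, rose by 1.09 ± 0.24 (edgeR adjusted p = 0.00654).

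Ubb and Rps27a, which both encode ubiquitin, moved in opposite directions. Ubb, a polyubiquitin gene, was at 1067, 1036 and 900.4 CPM in control and 1676, 1794 and 1566 CPM in EtP and rose by 0.75 ± 0.19 (edgeR adjusted p = 0.0148). It was called in 9 of 16 alternatives only, and its TPM groups overlapped, at 1196 ± 124 and 1275 ± 77.0 (SD, n = 3). Rps27a encodes ubiquitin fused to a ribosomal protein. It fell by 3.22 ± 0.40 (edgeR adjusted p = 0.000265), from 21.7, 13.6 and 14.9 CPM to 2.51, 2.10 and 0.828 CPM.

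Subunits that do not carry a Psm name went both ways. Adrm1, a ubiquitin receptor of the base, rose by 0.71 ± 0.21 (edgeR adjusted p = 0.0244), and Sem1, the smallest lid subunit, fell by 0.95 ± 0.31 (edgeR adjusted p = 0.0407). Each was called in 8 of 16 alternatives only. The core assembly factor Pomp was at 44.2 ± 14.6 and 41.3 ± 5.97 CPM (SD, n = 3). Nfe2l1 and Nfe2l2, transcription factors of proteasome genes, were not called, at 49.4 ± 22.7 and 74.4 ± 7.54 CPM for Nfe2l1 and 7.70 ± 0.877 and 6.33 ± 1.94 CPM for Nfe2l2 (SD, n = 3).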

How the data were processed

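Polyadenylated RNA was amplified by Smart-seq2, which primes with oligo-dT, per the labels' protocols, which describe no step that marks strand. The submitters' processing notes name cutadapt 1.16, STAR and the build mm10; which program counted is not given in the sources used here. Deposited expected counts are the authors' estimated counts of fragments per gene; 10.6% to 16% of rows were not whole (tolerance 0.005), and they were rounded. The deposited TPM values were scaled by the authors for effective length and depth. The deposited effective lengths are in bases, another column per the file headers.

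EtP and control (3 libraries each) were compared with edgeR 4.0.16 in R 4.3.3: filterByExpr, TMM scaling (factors 1.198 to 1.385 in control, 0.738 to 0.833 in EtP), robust quasi-likelihood fits, Benjamini-Hochberg adjustment over all genes. Each SE is the size of the log2 fold change over the root of its F statistic. Alternatives used DESeq2 1.42.0, limma 3.58.1 (voom, and log2 of TPM plus 1 or 0.1), other scalings and filters, a replicate block and single libraries left out. Copies were found with blastn 2.17.0 (at least 95% identity over 300 bases against GENCODE M21 transcripts). On simulated counts for this comparison (13717 genes tested), 77.9% of 95 genes changed by 2 on the log2 scale were called and 16.7% of 96 changed by 1, and 10% of the calls were genes simulated without change. In the simulation, changes of the smaller size were thus often missed. Far fewer genes were changed there than the 30.6% of tested genes called in the data, so these rates need not hold for the data. No pair of replicates agreed within counting noise. Intervals and floors cover counting error only, since PCR copies carry no molecular identifiers.

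Genes named are all members, with values per library for called members and for the most abundant of each role; of the related list, the called genes with the smallest p and at least 5 CPM, plus Adrm1, Sem1, Pomp, Nfe2l1 and Nfe2l2. Some genes that this rule covers are not reported here. Members, lists and motifs were chosen with earlier results of these data known.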

Additional observations from a re-analysis of the deposited data

How the results depend on the processing

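All 15 called members kept their direction in each of the 238 values that the alternatives gave for them, and 211 of these values stayed called. The 27 lost calls belonged to Psma5, Psmb7, Psmc5, Psmd4, Psmd8, Psmd11 and Psmd14. With RLE and upper-quartile scaling, DESeq2 and limma-voom the numbers of higher and lower members stayed within 1.5 times. Library size alone gave 5 higher and 18 lower members and TPM with either pseudocount 6 and 17. An adjusted p below 0.01 gave 7 higher and 3 lower, where 6.39% and 9.76% of all tested genes were called. Leaving out single libraries gave 8 to 18 higher members, the most without control replicate 1, and 3 to 7 lower ones, with 3 without EtP replicate 1 or EtP replicate 3. Over all genes 7.05% to 17.6% were called higher and 10.7% to 19.3% lower when single libraries were left out. Of the related list, library size alone gave 2 higher and 15 lower and TPM with either pseudocount 3 and 9. Over all genes the shares were 3.79% and 53% with library size alone. In TPM they were 5.11% and 42.5% with a pseudocount of 1 and 5.05% and 41.7% with 0.1. The filter at 10 CPM gave 3 higher, where 14% of all genes were, and an adjusted p below 0.01 gave 4 and 2. RLE, DESeq2 and limma-voom each gave 2 lower, where 15.8%, 11.3% and 17.1% of all genes were. Without single libraries the related list gave 4 to 13 higher. There were 13 without control replicate 3, and 4 without control replicate 2 or the first or second EtP library. The list gave 2 to 5 lower, with 3 without control replicate 2 and 2 without each EtP library. The cause of these shifts was not tested.

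Members that were not called turned sign in 44 values. With library size alone Psmc3, Psmd2, Psma6, Psmd6, Psmc6, Psmd5, Psmc4, Psmd10, Psmf1 and Psme4 were at -0.51, -0.48, -0.15, -0.16, -0.31, -0.18, -0.33, -0.61, -0.49 and -0.24. In TPM Psmc3, Psmd2, Psmd6, Psmc6, Psmd5, Psmc4, Psmd10, Psmf1 and Psme4 were at -0.18, -0.45, -0.17, -0.42, -0.37, -0.28, -0.49, -0.45 and -0.25 with a pseudocount of 1 and at -0.20, -0.45, -0.17, -0.43, -0.40, -0.30, -0.49, -0.46 and -0.27 with 0.1. With the filter at 10 CPM Psmc3, Psmd10 and Psmf1 were at -0.029, -0.15 and -0.032. Psmg3, which lay at 0.00, was at 0.086 with RLE, 0.043 with no filter and 0.11 with DESeq2. When single libraries were left out, the log2 fold changes of members that turned had these ranges: Psmb1 -0.49 to 0.0085; Psmb5 -0.50 to 0.70; Psmb6 -0.34 to 0.093; Psmc2 -0.36 to 0.088; Psmd10 -0.069 to 0.54; Psmg3 -0.16 to 0.28; Psmg4 -0.68 to 0.025.

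Same-numbered control and EtP libraries had correlations of their deviations of 0.127, 0.0032 and 0.273. Control replicate 2 correlated best with EtP replicate 1 (0.017), while control replicates 1 and 3 each correlated best with the EtP library of their own number. Whether the numbers pair the samples cannot be told from these values. With the replicate block 13 members were higher and 6 lower, and over all genes 16% and 21% were called. Of the 49 members 6 had too few counts to test at this depth.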

Other observations

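The ends of the transcripts carry the signals for the poly(A) tail, through which this protocol captures RNA. In the last 100 bases of the main coding transcript of GENCODE M21, the polyadenylation signal AATAAA was present in 35 of the 43 tested proteasome genes (81.4%), where 65.3% of the 11494 tested genes with a coding transcript held it. The cytoplasmic polyadenylation elements TTTTAT or TTTTAAT, which lengthen the tail of stored egg RNA, were in 6 of the 43 (14%), against 19.4% of all. Of the 10 members higher in EtP 0 held one, of the 5 lower ones 1 (Psma5), and of the 28 not called 5. Over all tested genes 23.4% of those higher and 15.3% of those lower in EtP held one. Proteasome transcripts were also short: the median length was 1440 bases with a 3' UTR of 237 bases, where the medians of all were 2977 and 980 bases.

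Among the 5 rows left out, the 4 pseudogene rows had few counts. Psmb7-ps2 had 26.3, 13.6 and 4.71 counts in control and 2.23, 3.31 and 6.38 in EtP, and Psmb6-ps had 7.01, 5 and 8 counts in control and 0 in each EtP library. Psmc3ip, a cofactor of meiotic recombination, had more, at 75.3 to 124 counts in control and 43.2 to 48.1 counts in EtP.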
